A study of Mus musculus with 69 samples.

Results

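The genes described here encode the early growth response (EGR) transcription factors Egr1, Egr2 and Egr3 and the NGFI-A binding protein corepressors Nab1 and Nab2. They were chosen by symbol from the expression tables of bone marrow-derived macrophages (BMDMs), and all 5 were found among the 24537 genes listed. EGR factors are zinc-finger proteins of the immediate early class, which are transcribed soon after a cell receives a signal, and they bind short GC-rich sites. NAB1 and NAB2 have no DNA-binding domain. They attach to EGR proteins and bring in repressive complexes that contain CHD4 and histone deacetylases, and Nab2 is itself known as an EGR target gene, so that the corepressor limits the factor that raises it. In macrophages, Egr2 is known as a gene that interleukin-4 (IL-4) induces through STAT6, a transcription factor.

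The macrophages were grown with M-CSF from the bone marrow of young adult female mice, and RNA with poly(A) tails was sequenced. For the comparison of 5 inbred strains, BMDMs came from SPRET/EiJ mice (a wild-derived strain, SPRET), PWK/PhJ mice (also wild-derived, PWK), and the laboratory strains NOD/ShiLtJ (NOD), BALB/cJ (BALB) and C57BL/6J (C57). They were left untreated (basal) or received IL-4 at 20 ng/ml for 24 hours, with 3 libraries per group but 2 for basal PWK. A time course in C57 and SPRET had 2 libraries each at 0, 1, 6 and 24 hours of IL-4. The same 4 times, with 2 libraries each, were measured in Egr2WT and Egr2MKO BMDMs, which both carry floxed Egr2 alleles. Only Egr2MKO also carries Cre recombinase, driven by the lysozyme M promoter, so the loss of Egr2 is limited to cells in which that promoter has been active. F1 cells of C57 crossed with SPRET or with NOD had 2 basal and 2 IL-4 libraries each, with expression divided between the parental alleles. The study calls its RNA-seq libraries biological replicates, and the labels do not say whether those of a group came from separate mice or separate cultures. P-values therefore measure the spread between these libraries, which may be less than that between mice.

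The 61 libraries of the 3 expression tables held between 4.69 and 32.9 M mapped tags. Levels are given in TPM, transcript abundance scaled by gene length and by the library total. Differences are on the log2(TPM + 1) scale from limma, with adjusted p-values over all genes tested. The words rose and fell are used for an adjusted p under 0.05, and a gene was called when it also differed more than 2-fold. Of the members, 4 passed the filter of 1 TPM in 2 libraries in the strain table and in the Egr2 table, where Egr3 did not, and all 5 passed in the time course. All 7 macrophage markers were above 1 TPM in each table, while markers of T cells summed to at most 0.573 TPM. Markers of other cells moved with strain. Summed over 7 neutrophil markers, PWK had 546 to 598 TPM and SPRET 344 to 404 TPM in basal cells and 249 to 274 TPM after IL-4, against 15.2 to 131 TPM in C57, BALB and NOD. PWK also had 105 to 210 TPM over 5 fibroblast markers, against 2.24 to 16.7 TPM in the other strains. They moved with IL-4 too, as the neutrophil sum went from 106 to 131 TPM down to 16.7 to 24.3 TPM in C57, from 53.0 to 59.97 TPM down to 18.0 to 19.8 TPM in BALB and from 40.9 to 52.7 TPM down to 15.2 to 18.9 TPM in NOD, while PWK stayed at 546 TPM or more. Of the neutrophil markers, S100a8, S100a9, Camp and Ngp reached a mean of 1 TPM in some group, 4 of 7, and none was at 0 throughout the strain table. These values stand beside every PWK, SPRET and IL-4 result of the strain table below, and their part in those results was not tested. In bulk RNA, fewer cells of a type and less RNA per cell cannot be told apart.

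Sequences upstream of the members are shown because they hold, or lack, the sites of the factors discussed here. RefSeq windows (GRCm38.p6, the assembly of mm10) were matched for 3 of the 5 members, Egr2, Nab1 and Nab2. The 250 bases before the Egr2 start (chr10:67537619-67537868, plus strand) hold a CArG box, the site of serum response factor, which drives many immediate early genes. It is in capitals and lies 72 bases before the start.

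Egr2 upstream: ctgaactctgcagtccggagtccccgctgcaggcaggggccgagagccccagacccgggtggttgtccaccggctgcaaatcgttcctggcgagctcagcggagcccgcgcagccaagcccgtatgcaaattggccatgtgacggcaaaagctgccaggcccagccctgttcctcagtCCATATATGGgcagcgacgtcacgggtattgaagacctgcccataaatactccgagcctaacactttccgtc

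The window before Nab1 (minus strand) holds 3 matches to the EGR site GCGNGGGCG, read on both strands, and only these are shown, with the site in capitals. They lie at chr1:52500573-52500597, chr1:52500541-52500565 and chr1:52500470-52500494, which is 141, 109 and 38 bases before the start. The site farthest from the start is on the opposite strand.

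Nab1 at 141 bases: cccgcggcCGCCCACGCcgggatct

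Nab1 at 109 bases: tcggccgcGCGTGGGCGggagccgg

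Nab1 at 38 bases: ggggcgggGCGGGGGCGgcggaggt

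The 243 bases before Nab2 (chr10:127666711-127666953, minus strand) hold none of the motifs searched.

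Nab2 upstream: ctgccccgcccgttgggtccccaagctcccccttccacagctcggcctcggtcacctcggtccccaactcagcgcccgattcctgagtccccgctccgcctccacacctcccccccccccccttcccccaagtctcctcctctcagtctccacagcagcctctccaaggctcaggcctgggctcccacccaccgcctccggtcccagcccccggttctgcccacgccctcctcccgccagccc

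Of 32851 RefSeq windows of 250 bases, 4.70% hold at least 1 EGR site and 46 windows (0.14%) hold 3 or more. A CArG box is in 1.47%, the STAT site TTCNNNNGAA in 5.85% and the cAMP response element TGACGTCA in 1.55%. GC content was 80.8% in the Nab1 window, 72.4% in the printed Nab2 stretch and 61.6% in that of Egr2, against a median of 52.4% over all windows, and GC-rich windows hold more of the GC-rich EGR sites by their composition. No STAT site was found in the windows of the 3 genes. A match describes letters only, and distal elements were not searched. Egr2 lies at chr10:67537869-67542188 (plus strand), Nab2 at chr10:127660918-127666703 (minus strand), Nab1 at chr1:52455849-52500448 (minus strand), Egr3 at chr14:70077445-70082613 (plus strand) and Egr1 on chromosome 18. Nab2 and its neighbour Stat6 are transcribed towards each other and their 3′ ends overlap by 70 bases. The counting is not stated to use strand, so Nab2 values may hold reads of Stat6 in that stretch, and Stat6 is given beside Nab2 where they moved together.

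Egr2 made up nearly all EGR transcripts in these cells. Its share of the summed TPM of Egr1, Egr2 and Egr3 was between 90.2% and 99.7% in the libraries of the 5 strains. Egr1, the family member best known from growth factor signalling, stayed at or below 1.06 TPM in the strain table, and Egr3 at or below 0.334 TPM. The relative Egr4 was listed at 0 in every library. Both corepressors were well above these levels, with Nab1 between 5.15 and 14.0 TPM except in SPRET, where basal values reached 14.2 TPM, and Nab2 between 4.12 and 23.5 TPM.

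The comparison of the 5 strains asks how Egr2 and its partners differ between genetically distinct macrophages before and after IL-4. Basal Egr2 levels were 14.4, 13.1 and 12.5 TPM in C57, 18.4, 16.8 and 17.4 TPM in BALB, and 25.2, 24.8 and 31.7 TPM in NOD. They were 3.37 and 3.44 TPM in PWK and 1.87, 2.20 and 1.97 TPM in SPRET. No strain overlapped with another, and the order was NOD, BALB, C57, PWK, SPRET. Each step of this order passed the test, with log2 differences, as first minus second strain, of 0.60 ± 0.09 (SE, here and below) between NOD and BALB (adjusted p = 1.7e-06 from limma), 0.37 between BALB and C57, -1.70 between PWK and C57, and -0.55 between SPRET and PWK (adjusted p = 2.9e-05). The 2 groups that differed most, NOD and SPRET, stood at means of 27.2 and 2.01 TPM, a log2 difference of -3.22 for SPRET minus NOD.

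After 24 hours of IL-4, Egr2 levels were 62.0, 55.5 and 48.7 TPM in C57, 40.5, 35.5 and 39.0 TPM in BALB, and 29.3, 26.8 and 30.4 TPM in NOD. They were 18.0, 17.4 and 15.0 TPM in PWK and 50.2, 50.9 and 50.0 TPM in SPRET. SPRET, lowest in basal cells, now overlapped with C57, the highest, and their difference was -0.13 ± 0.09 (adjusted p = 0.20). The neighbouring strains in the order after IL-4 differed, by 0.39 between SPRET and BALB (adjusted p = 4.1e-04), -0.40 between NOD and BALB and -0.74 between PWK and NOD.

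Egr2 thus rose with IL-4 in 4 strains. The mean went from 13.4 to 55.4 TPM in C57, 4.14-fold and a log2 change of 1.97 ± 0.09 (adjusted p = 2.3e-15), and from 17.6 to 38.3 TPM in BALB (1.08). It went from 3.40 to 16.8 TPM in PWK (2.01) and from 2.01 to 50.4 TPM in SPRET, 25.0-fold with a log2 change of 4.09 ± 0.09 (adjusted p = 5.9e-22). In NOD, basal and IL-4 libraries overlapped, with means of 27.2 and 28.8 TPM (0.08 ± 0.09, adjusted p = 0.50). These 4 rises of Egr2 were the only calls among the 4 members tested, and the share of all genes called in either direction was 3.80% for C57, 2.08% for both BALB and PWK, 1.19% for NOD and 3.94% for SPRET. With a pseudocount of 5 TPM, the change in BALB was 0.94 and short of 2-fold.

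**Figure D1:**
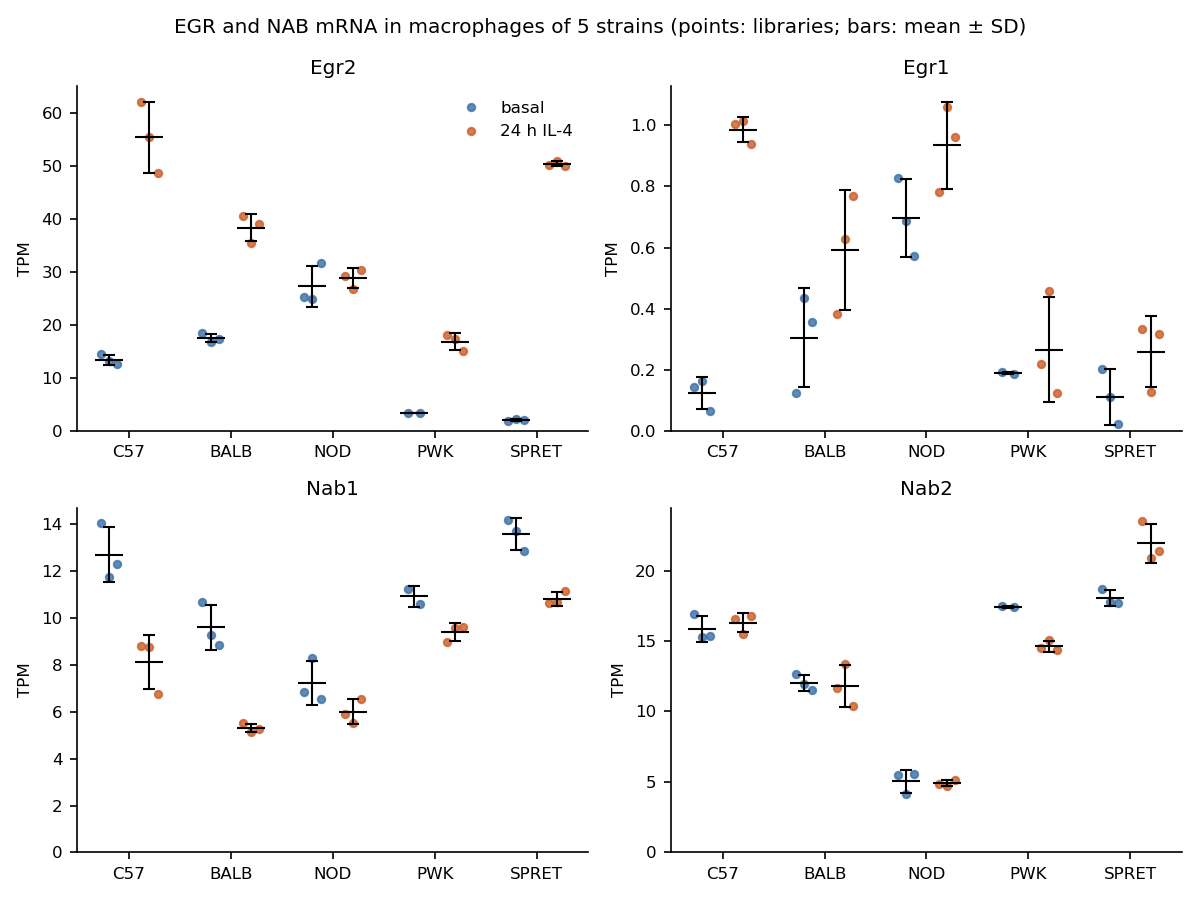
TPM (linear axes from 0) of Egr2, Egr1, Nab1 and Nab2 in each of the 5 strains, basal in blue and after 24 hours of IL-4 in orange, with points for libraries and bars for mean ± SD. Basal Egr2 spans 1.87 TPM in SPRET to 31.7 TPM in NOD, the IL-4 libraries of C57 and SPRET overlap, and Nab2 is lowest in NOD.

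The response itself was compared between strains by an interaction term. Relative to C57, the log2 response of Egr2 was 0.89 lower in BALB (difference -0.89 ± 0.13, adjusted p = 1.9e-05) and 1.88 lower in NOD (-1.88 ± 0.13, adjusted p = 2.9e-11). That of SPRET was larger by 2.12 ± 0.13 (adjusted p = 1.9e-12). PWK, with a basal mean of 3.40 TPM, had a response that differed from that of C57 by 0.04 ± 0.13 (adjusted p = 0.86), but with a pseudocount of 5 TPM the difference was -0.34 (adjusted p = 0.033). Over the 4 members, 9 of 16 such differences passed the test. Those of Egr1 are among them, from a gene that passed the filter only through C57 after IL-4. The shares of all genes passing were 15.8% for BALB, 33.3% for NOD, 22.4% for PWK and 33.4% for SPRET.

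Nab1, one of the corepressors, fell with IL-4 in 3 strains. Its levels went from 14.0, 11.8 and 12.3 TPM to 8.81, 8.75 and 6.77 TPM in C57, and from 10.7, 9.26 and 8.84 TPM to 5.50, 5.15 and 5.24 TPM in BALB. In SPRET they went from 14.2, 13.7 and 12.8 TPM to 10.6, 10.7 and 11.1 TPM. In these 3 strains, basal and IL-4 libraries did not overlap, and the log2 change of Nab1 was -0.59 ± 0.09 in C57 (adjusted p = 1.0e-05), -0.75 in BALB (adjusted p = 5.1e-07) and -0.30 in SPRET (adjusted p = 0.0088). The summed macrophage markers were lower after IL-4 in the same strains, at 16578 to 17831 TPM from 23233 to 23949 TPM in C57, at 21515 to 23073 TPM from 29087 to 30188 TPM in BALB and at 26273 to 26651 TPM from 27131 to 27856 TPM in SPRET, and their part was not tested. All 3 falls of Nab1 were short of 2-fold, and at an adjusted p alone 20.5% of all genes were lower in C57, 24.8% in BALB and 12.9% in SPRET. In NOD the libraries overlapped, at 6.82, 8.28 and 6.54 TPM and then 5.92, 5.51 and 6.56 TPM (-0.23, adjusted p = 0.055), and in PWK means of 10.9 and 9.39 TPM gave -0.20 (adjusted p = 0.17).

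The Nab1 response differed from that of C57 by 0.36 ± 0.13 in NOD (adjusted p = 0.033) and by 0.39 ± 0.14 in PWK (adjusted p = 0.040). Both differences were lost after median-ratio scaling, at 0.16 (adjusted p = 0.31) and 0.25 (adjusted p = 0.14). The difference in NOD was also lost without C57 IL-4 replicate 3 (0.25), C57 basal replicate 1 (0.30), NOD IL-4 replicate 3 (0.31) or NOD basal replicate 1 (0.33) or 3 (0.31). That in PWK was lost without C57 IL-4 replicate 3 (0.28), C57 basal replicate 1 (0.33), PWK IL-4 replicate 2 (0.38) or 3 (0.38), or PWK basal replicate 1 (0.43) or 2 (0.35).

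Nab2 rose with IL-4 in 1 strain and differed between strains. Basal levels were lowest in NOD, at 5.49, 4.12 and 5.56 TPM, and were 12.6, 11.9 and 11.5 TPM in BALB, 16.9, 15.3 and 15.4 TPM for C57, 17.5 and 17.4 TPM for PWK and 18.7, 17.7 and 17.7 TPM for SPRET. After IL-4 they were 4.87, 4.73 and 5.15 TPM in NOD, 11.6, 13.4 and 10.4 TPM in BALB, 14.5, 15.1 and 14.3 TPM for PWK, 16.6, 15.5 and 16.8 TPM for C57 and 23.5, 20.9 and 21.4 TPM for SPRET. NOD was below every library of the other strains in both conditions. Nab2 rose with IL-4 in SPRET by 0.27 ± 0.08 (adjusted p = 0.011, with 31.4% of all genes higher at an adjusted p alone), while the changes in C57, BALB and NOD lay between -0.03 and 0.04, and that in PWK was -0.24 (adjusted p = 0.062). The PWK response differed from that of C57 by -0.27 ± 0.12 (adjusted p = 0.11), which passed the threshold after median-ratio scaling (-0.42, adjusted p = 0.028) and after quantile normalization (-0.40, adjusted p = 0.043).

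Nab2 in NOD was below C57 by a log2 difference of -1.49 ± 0.08 in basal cells (adjusted p = 3.6e-14) and of -1.55 after IL-4 (adjusted p = 1.8e-14). Levels of many genes were lower in NOD: the median log2 difference of all genes to C57 was -0.30 in basal cells and -0.02 after median-ratio scaling, with which the Nab2 differences were -1.18 and -1.43. Stat6, which shares 70 bases with Nab2, was lower in NOD too, at 21.6 against 53.9 TPM in basal cells (-1.28) and 28.6 against 56.0 TPM after IL-4 (-0.95). The part of shared reads in the Nab2 difference was not tested. Against BALB, Nab2 in NOD differed by -1.11 in basal cells, which was short of 2-fold with a pseudocount of 5 TPM (-0.76), after median-ratio scaling (-0.76), after quantile normalization (-0.73) and without NOD basal replicate 2 (-0.998).

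Over the 10 pairs of strains, 10 of 40 basal member differences were called, and after IL-4 there were 7 of 40. Of all genes, the basal share called was 4.81% between BALB and C57, 13.3% between PWK and C57, 14.6% between PWK and NOD, 15.7% between PWK and BALB and 16.9% between NOD and C57. It was 18.0% between NOD and BALB, and for SPRET 18.1% against C57, 20.3% against BALB, 22.4% against PWK and 33.0% against NOD. After IL-4, the shares in that order were 5.39%, 12.2%, 14.2%, 12.8%, 13.2%, 11.8%, 20.6%, 21.7%, 22.6% and 32.6%. Of the basal calls, 6 were Egr2 and 4 were Nab2, and each Nab2 call involved NOD. The Egr2 difference between NOD and C57, 0.97 as deposited, passed 2-fold with a pseudocount of 0.1 TPM (1.02), after median-ratio scaling (1.32) and quantile normalization (1.19), and without C57 basal replicate 1 (1.02) or NOD basal replicate 1 (1.02) or 2 (1.03). After IL-4 that difference was -0.92, and -1.004 and past 2-fold without C57 IL-4 replicate 3. Nab1 was lower in NOD than in C57, with differences of -0.74 in basal cells (adjusted p = 8.7e-08) and -0.38 after IL-4, neither called.

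Egr1 was low, and its response differed from that of C57 in tests that the filter favoured. In C57 it went from 0.143, 0.163 and 0.065 TPM, worth 3 to 5 reads per library, to 1.01, 1.01 and 0.939 TPM, worth 17 to 46 reads. These groups did not overlap, and the log2(TPM + 1) change was 0.82 ± 0.11 (adjusted p = 1.8e-06), where 15.0% of all genes were higher at an adjusted p alone. The scale compresses changes this far under 1 TPM. Egr1 reached 1 TPM in 3 of the 29 libraries, which were C57 IL-4 replicates 1 and 2 and NOD IL-4 replicate 2. It passed the filter only through C57 after IL-4, so the rise in C57 and the differences from it below were favoured by the filter. In NOD, basal levels of 0.828, 0.688 and 0.572 TPM and IL-4 levels of 0.782, 1.06 and 0.961 TPM overlapped (0.19, adjusted p = 0.20). In BALB, PWK and SPRET the change lay between 0.08 and 0.29, with adjusted p-values from 0.050 to 0.70. The response was lower than that of C57 in each other strain, with a difference of -0.54 for BALB (adjusted p = 0.023), -0.63 for NOD, -0.74 for PWK and -0.64 for SPRET. That in BALB was lost without BALB IL-4 replicate 1 (-0.44), BALB basal replicate 2 (-0.46) or C57 basal replicate 3 (-0.50), with a pseudocount of 0.1 TPM (adjusted p = 0.064) and in a fit of the compared groups alone (adjusted p = 0.051). With 1 replicate number left out of every group, the difference was lost in BALB for each number (-0.55, -0.50 and -0.56), in NOD without replicate 1 (-0.52, adjusted p = 0.063) and in SPRET without replicate 2 (-0.58, adjusted p = 0.056). Egr3 was between 0 and 0.334 TPM in the strain table, at most 15 reads in a library, and was not tested there.

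The balance of corepressor to factor was described by the summed TPM of Nab1 and Nab2 over the summed TPM of the EGR members, with no test, since it restates the levels above. In basal cells this ratio was lowest in NOD, at 0.373 to 0.480, followed by BALB at 1.14 to 1.26, C57 at 2.03 to 2.19, PWK at 7.54 to 8.01 and SPRET at 13.4 to 15.9. No strain overlapped with another. After IL-4 it was 0.356 to 0.373 in NOD, 0.391 to 0.512 for BALB, 0.403 to 0.475 for C57, 0.618 to 0.676 for SPRET and 1.28 to 1.58 for PWK. The basal ratio of NOD thus overlapped with the IL-4 ratios of BALB and C57. Within the corepressors, Nab2 exceeded Nab1 in 4 strains, with a Nab2 to Nab1 ratio of 1.18 to 2.60, while in NOD the ratio was 0.498 to 0.858.

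**Figure D2:**
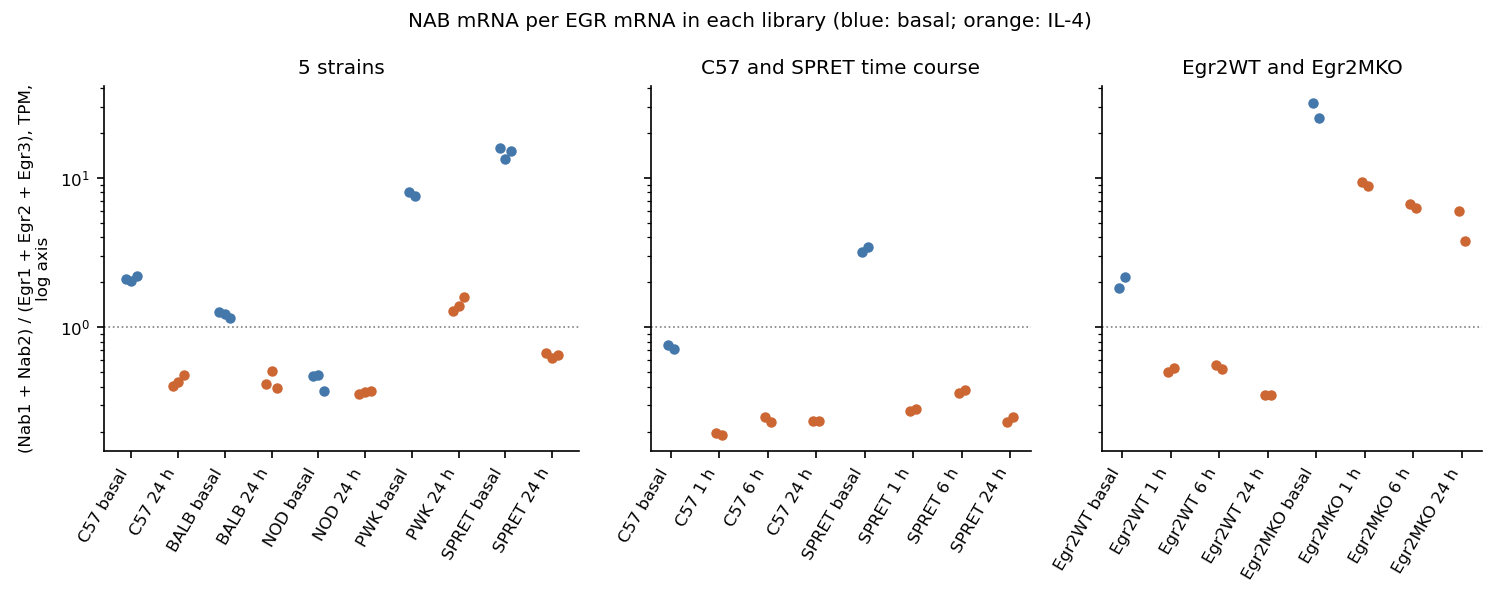
Summed TPM of Nab1 and Nab2 divided by the summed TPM of Egr1, Egr2 and Egr3 (log axis, dotted line at a ratio of 1), 1 point per library, basal in blue and IL-4 in orange, for the 3 expression tables. Basal ratios of the strains run from 0.373 in NOD to 15.9 in SPRET, and Egr2MKO libraries lie between 3.78 and 31.9.

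The time course asks when the difference between C57 and SPRET closes. Egr2 in C57 was at 63.2 and 64.9 TPM before IL-4, 197 and 200 TPM at 1 hour, 168 and 165 TPM at 6 hours and 157 and 166 TPM at 24 hours. In SPRET it was at 13.8 and 15.8 TPM, then 165 and 171 TPM, 145 and 149 TPM, and 160 and 149 TPM. In both strains the highest libraries were those at 1 hour. The log2 change at 1, 6 and 24 hours was 1.62, 1.36 and 1.32 in C57 and 3.42, 3.23 and 3.30 in SPRET (SE 0.06, largest adjusted p = 1.2e-08). From 1 to 6 hours Egr2 fell, with log2 changes of -0.25 in C57 (adjusted p = 0.012) and -0.19 in SPRET (adjusted p = 0.035).

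The strains, 2.05 apart before IL-4 (SPRET minus C57 -2.05 ± 0.06, adjusted p = 3.4e-11), differed by -0.24 at 1 hour (adjusted p = 0.0041), by -0.18 at 6 hours (adjusted p = 0.023) and by -0.06 at 24 hours (adjusted p = 0.37), where the libraries overlapped. The SPRET response was larger than that of C57 by 1.81 at 1 hour, 1.87 at 6 hours and 1.98 at 24 hours (adjusted p = 3.6e-08 at 24 hours). Of all genes, 2.32%, 11.1% and 28.9% had a response that differed at these times. Basal C57 had a mean of 64.1 TPM of Egr2 here and 13.4 TPM in the strain table, both from untreated C57 BMDMs, and this gap between tables was not tested.

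**Figure D3:**
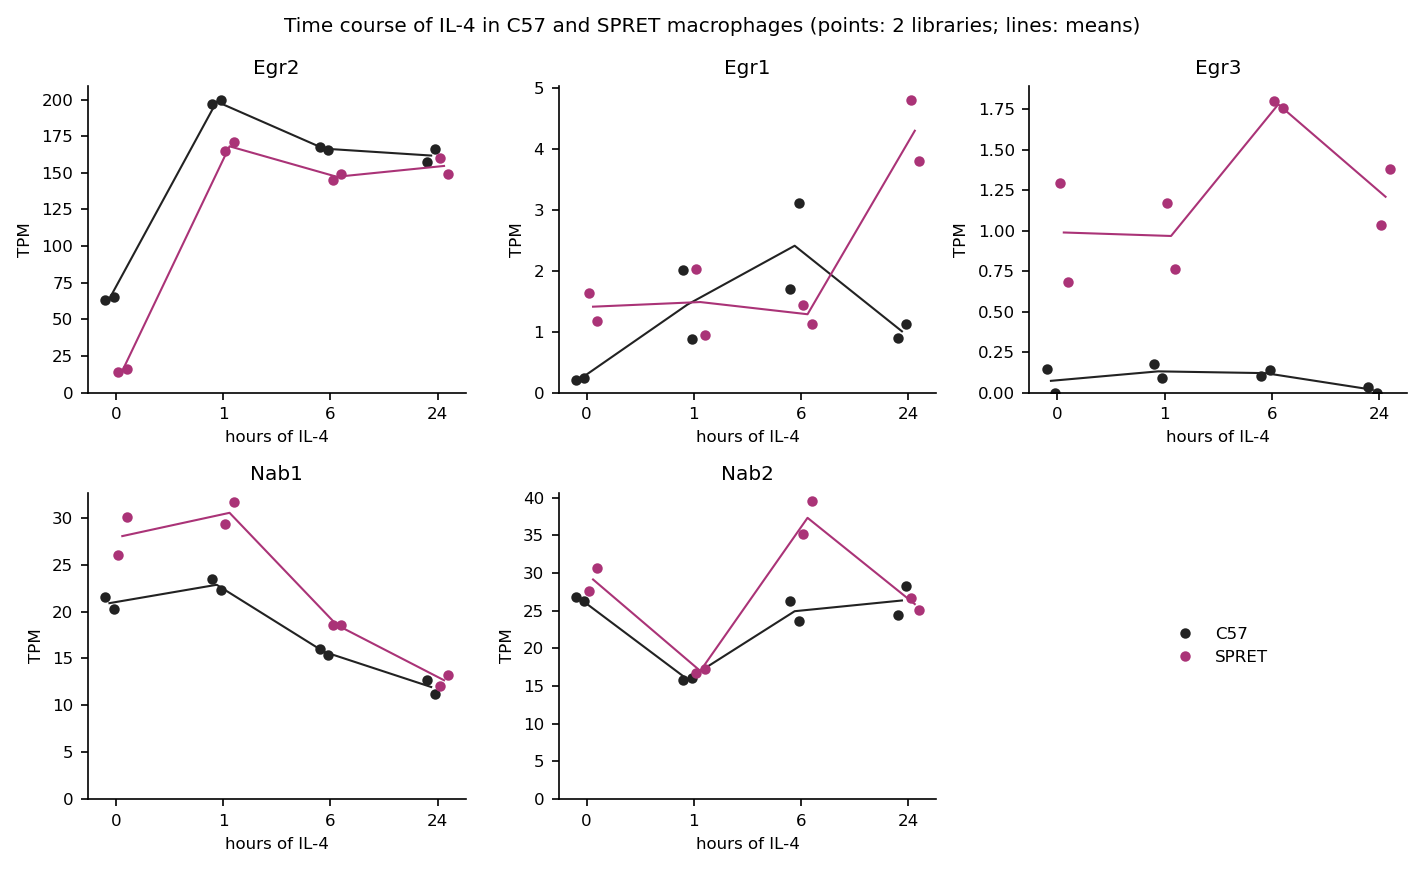
TPM (linear axes from 0) of the 5 members at 0, 1, 6 and 24 hours of IL-4, spaced evenly and not to scale, in C57 (black) and SPRET (purple), with points for libraries and lines through means. Egr2 of SPRET climbs from 13.8 and 15.8 TPM to 165 and 171 TPM by 1 hour, Nab2 dips at 1 hour in both strains, and Nab1 declines to 24 hours.

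Nab2 fell at 1 hour of IL-4 in both strains. At 1 hour it was at 15.8 and 16.0 TPM in C57, from 26.8 and 26.4 TPM, and at 16.7 and 17.3 TPM in SPRET, from 27.6 and 30.7 TPM. The groups did not overlap, and the log2 changes were -0.71 ± 0.09 in C57 (adjusted p = 2.4e-04) and -0.74 in SPRET (adjusted p = 7.7e-05), where 1.22% and 3.92% of all genes were lower at an adjusted p alone. By 6 hours Nab2 had risen again, to 26.3 and 23.6 TPM in C57 (6 minus 1 hour 0.62, adjusted p = 3.3e-04, with 7.85% of all genes higher) and to 35.2 and 39.5 TPM in SPRET (1.09, adjusted p = 1.5e-06, with 15.6% higher). SPRET was then 0.35 above its own basal level (adjusted p = 0.0084) and 0.56 above C57 (adjusted p = 1.0e-04), and by 24 hours the strains overlapped at 24.5 to 28.3 TPM. The response at 6 hours was larger in SPRET by 0.44 ± 0.12 (adjusted p = 0.038). It stayed between 0.35 and 0.52 under 24 alternatives but missed the threshold in 11 of them, among them without C57 6-hour replicate 2 (0.36), SPRET 6-hour replicate 2 (0.35), SPRET basal replicate 1 (0.36) or either C57 basal library (0.42 and 0.45). Leaving out any library at 1 hour left it at 0.44, with adjusted p-values from 0.051 to 0.055. Stat6, the neighbour of Nab2, changed by -0.09 (adjusted p = 0.52) and -0.02 (adjusted p = 0.91) at 1 hour.

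Nab1 fell later. In C57 it was at 21.6 and 20.2 TPM before IL-4, 23.4 and 22.3 TPM at 1 hour, 16.0 and 15.4 TPM at 6 hours and 12.7 and 11.2 TPM at 24 hours. In SPRET it was at 26.0 and 30.1 TPM, 29.4 and 31.7 TPM, 18.5 and 18.6 TPM, and 12.1 and 13.3 TPM. At 6 and 24 hours no library overlapped with the basal ones. The changes were -0.39 and -0.76 in C57 (adjusted p = 1.7e-05 at 24 hours) and -0.57 and -1.08 in SPRET (adjusted p = 7.4e-07). Summed macrophage markers went from 31767 to 32210 TPM before IL-4 to 21539 to 22401 TPM at 24 hours in C57, and from 51125 to 53701 TPM to 40135 to 40461 TPM in SPRET. Neutrophil markers went from 66.2 to 94.2 TPM to 6.49 to 7.97 TPM in C57, and in SPRET from 67.8 to 73.6 TPM to 71.8 to 91.7 TPM. Their part in the Nab1 changes was not tested. At an adjusted p alone, 9.55% and 21.1% of all genes were lower in C57 at these times, and 13.7% and 21.8% in SPRET. That of SPRET at 24 hours was the only called fall of a member in these strains, and it was short of 2-fold with a pseudocount of 5 TPM (-0.90) and without SPRET basal replicate 2 (-0.98). The difference between the responses of the strains at 24 hours was -0.33 ± 0.12 (adjusted p = 0.062), and 3 of 24 alternatives brought it past the threshold.

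Over both strains, 9 of 30 member changes were called, of which 6 were Egr2, 2 were Egr1 and 1 was Nab1. The shares of all genes called were 0.877%, 2.13% and 5.76% at 1, 6 and 24 hours in C57 and 1.89%, 4.57% and 5.62% in SPRET. Egr1 in C57 was at 0.210 and 0.237 TPM before IL-4, 2.01 and 0.874 TPM at 1 hour, 1.70 and 3.12 TPM at 6 hours and 0.890 and 1.12 TPM at 24 hours. It was called at 6 hours (1.45 ± 0.27, adjusted p = 0.0022), and not at 1 hour (0.96, adjusted p = 0.086). At 24 hours it did not pass an adjusted p under 0.05, whereas in the strain table it rose in C57. All 3 depend on the processing. The change at 6 hours was 0.50 and short of 2-fold with a pseudocount of 5 TPM. That at 1 hour was called with a pseudocount of 0.1 TPM (2.15) and without C57 1-hour replicate 2 (1.30). With a pseudocount of 0.1 TPM, that at 24 hours was called too (1.77). In SPRET it was at 1.64 and 1.18 TPM, 2.03 and 0.943 TPM, 1.44 and 1.13 TPM, and 4.80 and 3.79 TPM, and was called at 24 hours (1.14 ± 0.27, adjusted p = 0.0054). That rise was 1.00 and just short of 2-fold without SPRET 24-hour replicate 1 or SPRET basal replicate 2, and 0.54 with a pseudocount of 5 TPM. The SPRET response of Egr1 at 24 hours did not differ from that of C57 past the threshold here, whereas it was lower in the strain table. SPRET means of Egr1 were 1.41 TPM before IL-4 and 4.30 TPM at 24 hours here, against 0.112 and 0.259 TPM there. This gap between tables was not tested. The response at 6 hours was lower in SPRET by 1.52 (difference -1.52 ± 0.38, adjusted p = 0.023), which lost the call without C57 6-hour replicate 2 (-1.22), SPRET 6-hour replicate 2 (-1.42), SPRET basal replicate 1 (-1.38) or either C57 basal library (-1.50 and -1.54).

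Egr3, a paralog of Egr2, was detected in SPRET and near 0 in C57. Its levels were 1.29 and 0.684 TPM before IL-4, 1.17 and 0.762 TPM at 1 hour, 1.80 and 1.76 TPM at 6 hours and 1.04 and 1.38 TPM at 24 hours in SPRET, worth 12 to 63 reads per library. In C57 all 8 libraries lay between 0 and 0.174 TPM, at most 6 reads. Egr3 passed the filter only through SPRET, so that a difference was bound to appear among the genes tested. SPRET minus C57 was 0.88, 0.79, 1.31 and 1.11 at 0, 1, 6 and 24 hours, called at 6 and 24 hours, where the difference was 0.40 and 0.31 with a pseudocount of 5 TPM. Without SPRET basal replicate 2, the basal difference was 1.10 and also past 2-fold. SPRET libraries of the strain table, in contrast, had 0 to 0.044 TPM of Egr3. Between SPRET and C57, 4 of 20 member differences were called over the 4 times, where 18.8%, 19.5%, 18.6% and 20.5% of all genes were. The called ones were Egr2 before IL-4, Egr1 at 24 hours and Egr3 at 6 and 24 hours. With Egr3 among them, the count cannot be weighed against these shares.

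The ratio of NAB to EGR transcripts fell from 0.715 and 0.761 to 0.191 and 0.197 in C57 at 1 hour, and from 3.21 and 3.44 to 0.274 and 0.283 in SPRET. At 24 hours it was 0.235 and 0.236 in C57 and 0.233 and 0.249 in SPRET, so the strains, apart by more than their spread before IL-4, overlapped.

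The Egr2 knockout asks what the other members do without Egr2. The targeted gene was measured first, as a check of the labels. In Egr2WT, Egr2 was at 23.6 and 21.3 TPM before IL-4, 82.0 and 75.6 TPM at 1 hour, 88.4 and 92.5 TPM at 6 hours and 101 and 99.5 TPM at 24 hours. In Egr2MKO it was at 0.859 and 0.854 TPM, 3.39 and 4.09 TPM, 3.10 and 5.23 TPM, and 4.72 and 7.05 TPM. Every Egr2MKO library was below every Egr2WT library, in keeping with the genotype labels, and the log2 differences were -3.66, -4.08, -4.18 and -3.90 (SE 0.18, largest adjusted p = 1.4e-07). These were the only called differences among 16 between the genotypes, where 0.853%, 1.06%, 2.30% and 4.55% of all genes were called at 0, 1, 6 and 24 hours.

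The remaining Egr2 transcripts still rose with IL-4, by 1.35, 1.44 and 1.87 in Egr2MKO against 1.76, 1.96 and 2.11 in Egr2WT. With a pseudocount of 5 TPM the rises in Egr2MKO were 0.58, 0.64 and 0.89, all short of 2-fold. The interaction was -0.42, -0.52 and -0.24 (SE 0.26, smallest adjusted p = 0.45). At these levels it depends on the pseudocount: at 24 hours it was -1.05 with 5 TPM, past the threshold (adjusted p = 0.0010), and 0.47 with 0.1 TPM (adjusted p = 0.38). Gene totals do not tell whether these transcripts came from cells that kept the gene or from the recombined allele. Over both genotypes, 9 of 24 changes with IL-4 were called, 6 of Egr2 and 3 of Egr1. The shares of all genes called were 0.778%, 2.86% and 4.35% in Egr2WT and 0.902%, 3.70% and 4.83% in Egr2MKO. Egr1 passed the filter here only through 6 and 24 hours of IL-4, so with it the count cannot be weighed against these shares.

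Nab1 fell with IL-4 in Egr2WT, and its response differed in Egr2MKO. In Egr2WT it was at 28.7 and 30.9 TPM before IL-4, 31.4 and 30.5 TPM at 1 hour, 28.6 and 31.0 TPM at 6 hours and 19.0 and 18.8 TPM at 24 hours. In Egr2MKO it was at 34.2 and 33.3 TPM, 34.7 and 37.7 TPM, 38.2 and 35.4 TPM, and 36.9 and 36.4 TPM. At 24 hours the fall in Egr2WT was -0.63 ± 0.06 (adjusted p = 1.1e-05, with 18.2% of all genes lower) and the change in Egr2MKO was 0.12 ± 0.06 (adjusted p = 0.21). The difference between the responses was 0.75 ± 0.09 (adjusted p = 2.1e-04), where 8.78% of all genes had a higher response in Egr2MKO and 12.6% differed in either direction. Of 12 member responses compared, it was the 1 that passed the test, while 0.0166% and 1.10% of all genes did at 1 and 6 hours. It stayed between 0.62 and 0.80 and past the threshold under all 24 alternatives, leaving out each library among them. At 24 hours Nab1 was 0.92 higher in Egr2MKO than in Egr2WT (adjusted p = 3.9e-07), just short of 2-fold, where 25.9% of all genes were higher at an adjusted p alone. Before IL-4 and at 1 and 6 hours the difference was 0.17 (adjusted p = 0.11), 0.22 (adjusted p = 0.046) and 0.30 (adjusted p = 0.0065). The fall in Egr2WT came after 6 hours, as 24 minus 6 hours was -0.63 (adjusted p = 2.4e-05), whereas in C57 the level at 6 hours was already below basal. Summed macrophage markers went from 24357 to 25911 TPM before IL-4 to 15408 to 15632 TPM at 24 hours in Egr2WT and from 20684 to 20723 TPM to 12727 to 13267 TPM in Egr2MKO. Neutrophil markers went from 62.3 to 65.5 TPM to 19.4 to 21.9 TPM in Egr2WT and from 40.4 to 45.3 TPM to 10.9 to 16.1 TPM in Egr2MKO, so both sums were lower after IL-4 in either genotype, and their part was not tested. The 3 EGR sites in capitals above lie before this gene. The study mapped EGR2 binding in BMDMs by chromatin immunoprecipitation, and those data were not examined here for these sites.

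**Figure D4:**
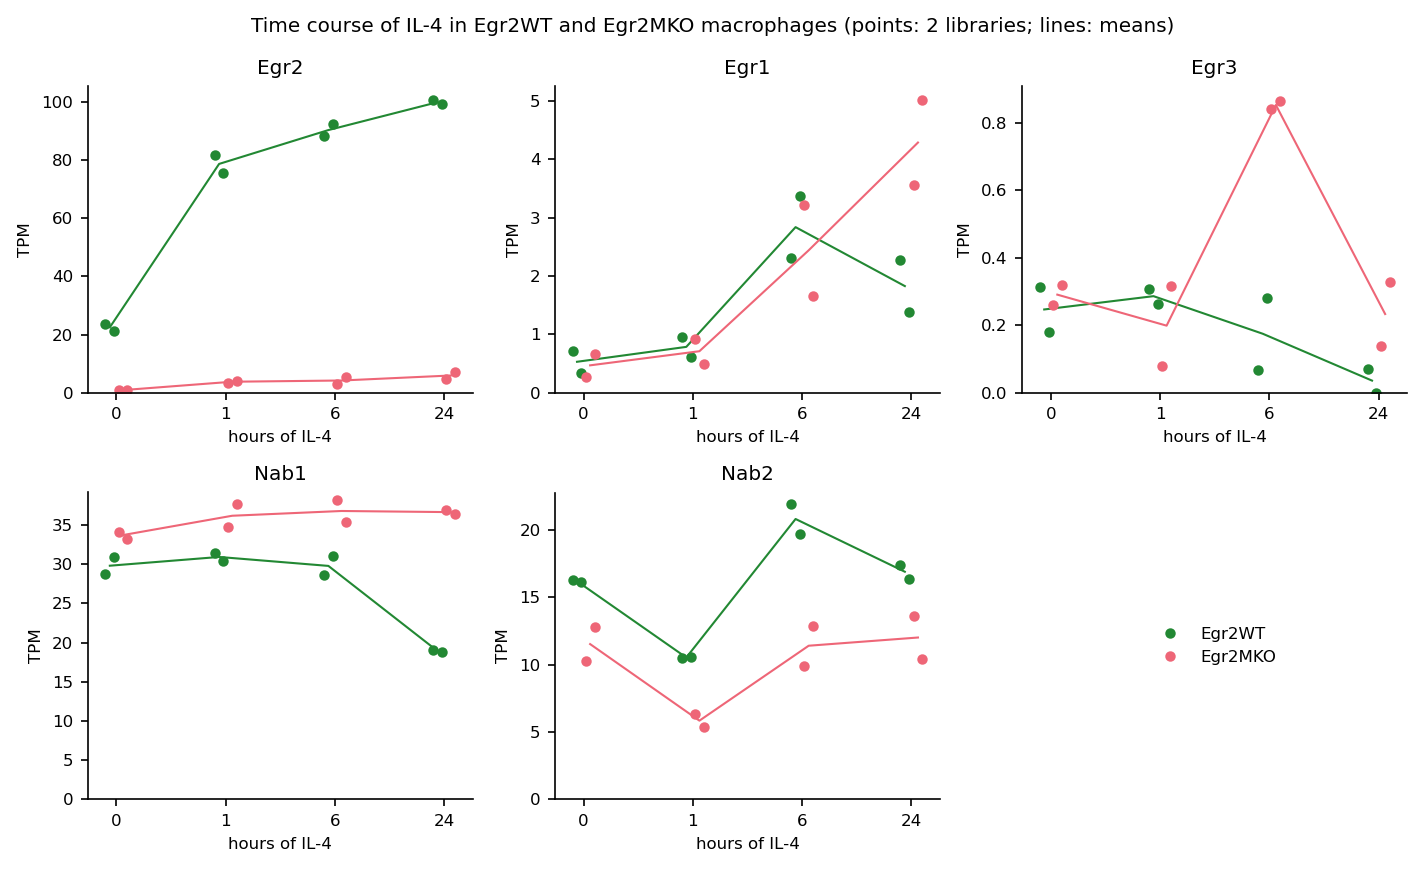
TPM (linear axes from 0) of the 5 members at 0, 1, 6 and 24 hours of IL-4, spaced evenly and not to scale, in Egr2WT (green) and Egr2MKO (pink), with points for libraries and lines through means. Egr2 of Egr2MKO lies between 0.854 and 7.05 TPM, and Nab1 falls to 19.0 and 18.8 TPM at 24 hours in Egr2WT while Egr2MKO is at 36.9 and 36.4 TPM.

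Nab2 was lower without Egr2 at 1, 6 and 24 hours. In Egr2WT it was at 16.3 and 16.1 TPM before IL-4, 10.5 and 10.6 TPM at 1 hour, 22.0 and 19.7 TPM at 6 hours and 17.4 and 16.4 TPM at 24 hours. In Egr2MKO it was at 10.3 and 12.8 TPM, 6.33 and 5.33 TPM, 9.91 and 12.9 TPM, and 13.6 and 10.4 TPM. The genotypes did not overlap at any of the 4 times. The differences were -0.47 ± 0.15 (adjusted p = 0.063), -0.76 (adjusted p = 0.0049), -0.82 (adjusted p = 0.0019) and -0.47 (adjusted p = 0.024), all short of 2-fold, where 5.37%, 9.12% and 11.5% of all genes were lower at an adjusted p alone at 1, 6 and 24 hours. Stat6, its overlapping neighbour, was higher in Egr2MKO, by 0.20 before IL-4 (adjusted p = 0.0095) and by 0.09 to 0.16 afterwards. At 1 hour Nab2 was lower than before IL-4 in every library of both genotypes. The change was -0.87 ± 0.15 in Egr2MKO (adjusted p = 0.0034, with 1.20% of all genes lower) and -0.58 in Egr2WT (adjusted p = 0.057), and the difference between them was -0.29 ± 0.21 (adjusted p = 1.0). From 1 to 6 hours Nab2 rose by 0.92 in Egr2WT (adjusted p = 6.9e-04) and by 0.85 in Egr2MKO (adjusted p = 0.0010), where 12.4% and 15.3% of all genes were higher.

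Egr1 rose with IL-4 in both genotypes, and the largest of its 6 changes was at 24 hours in Egr2MKO. It reached 1 TPM in 8 of 16 libraries, all at 6 or 24 hours of IL-4. Egr1 thus passed the filter only through the groups where it was high, and its rises were favoured by the filter. It went from 0.712 and 0.344 TPM to 2.31 and 3.37 TPM at 6 hours in Egr2WT (1.32 ± 0.28, adjusted p = 0.0044) and from 0.273 and 0.661 TPM to 3.22 and 1.66 TPM in Egr2MKO (1.20, adjusted p = 0.0069). The rise in Egr2MKO missed the threshold without Egr2MKO 6-hour replicate 1 (0.87), without Egr2MKO basal replicate 1 (1.01) and in a fit of the compared groups alone (adjusted p = 0.079). At 24 hours Egr1 was at 2.28 and 1.38 TPM in Egr2WT (0.88 ± 0.28, adjusted p = 0.034, not called) and at 3.55 and 5.02 TPM in Egr2MKO (1.85 ± 0.28, adjusted p = 3.4e-04), where the remaining Egr2 was at 4.72 and 7.05 TPM. With a pseudocount of 5 TPM the 3 called rises were short of 2-fold, at 0.50 for Egr2WT at 6 hours and 0.44 and 0.76 for Egr2MKO at 6 and 24 hours. At 24 hours the genotypes had a difference of 0.91 ± 0.28 (adjusted p = 0.025), which passed 2-fold without Egr2WT 24-hour replicate 1 (1.14) or Egr2MKO 24-hour replicate 1 (1.11). The difference between the responses was 0.97 ± 0.40 (adjusted p = 0.15). Egr3 was not tested. At 6 hours it was at 0.840 and 0.866 TPM in Egr2MKO, worth 18 and 40 reads, and at 0.067 and 0.282 TPM in Egr2WT, worth 1 and 3 reads, while all other groups lay between 0 and 0.327 TPM. Summed EGR transcripts were thus far lower in Egr2MKO, and the NAB to EGR ratio was 25.1 and 31.9 before IL-4 against 1.82 and 2.15 in Egr2WT, and 3.78 and 6.01 against 0.349 and 0.353 at 24 hours.

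F1 cells hold both parental alleles in 1 nucleus, and ask whether the alleles differ when they share all diffusible factors. The deposited values are allele-weighted TPM, and in the C57 x SPRET table they are scaled by lengths that equal the genomic span for 99.5% of genes, so levels are compared here only within this table. Egr2 of the C57 allele was at 62.1 and 54.9 in basal cells and at 227 and 241 after IL-4. The SPRET allele was at 78.5 and 74.4, then at 277 and 288. The SPRET allele was the higher of the pair in all 4 libraries. The log2 ratio of C57 to SPRET was -0.38 ± 0.08 in basal cells (95% interval -0.61 to -0.16, limma adjusted p = 0.053) and -0.27 after IL-4 (-0.50 to -0.05, adjusted p = 0.12). The parents, in the strain table, differed by 2.25 in basal cells and by 0.13 after IL-4, with C57 higher. The basal allele ratio thus had the opposite sign to the parental difference, and the 2 tables were not tested against each other. Both alleles were higher after IL-4, with ratios of means of 4.00 for C57 and 3.70 for SPRET, and the change of the allele ratio was 0.11 ± 0.12 (interval -0.20 to 0.42, adjusted p = 0.78).

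**Figure D5:**
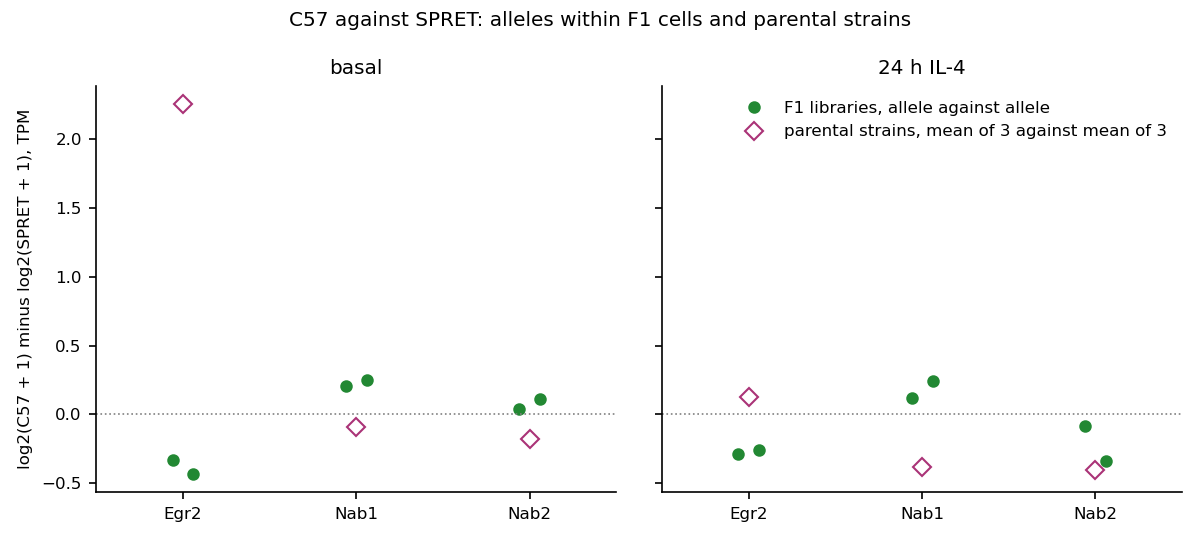
Log2(TPM + 1) of C57 minus that of SPRET for Egr2, Nab1 and Nab2, basal and after 24 hours of IL-4, with green points for the alleles in each F1 library and open diamonds for the parental strains (means of 3 libraries), and a dotted line at no difference. For Egr2 the F1 points lie below 0 in both conditions, while the parental value is 2.25 in basal cells and 0.13 after IL-4.

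The corepressor alleles were close to each other. Nab1 was at 17.3 and 18.3 (C57) and 14.8 and 15.2 (SPRET) in basal cells, and at 7.64 and 7.93 and at 6.93 and 6.55 after IL-4. Both alleles were lower after IL-4, and C57 was slightly the higher, by 0.23 ± 0.09 in basal cells (interval -0.02 to 0.47). Nab2 was at 57.2 and 55.0 (C57) and 55.7 and 50.9 (SPRET) in basal cells, and at 56.0 and 57.2 and at 59.4 and 72.7 after IL-4, with a basal log2 ratio of 0.08 (interval -0.20 to 0.35). Egr1 was at 6.49 and 6.12 (C57) and 3.23 and 2.83 (SPRET) in basal cells (0.86 ± 0.30, adjusted p = 0.14), and the order of the alleles differed between the 2 IL-4 libraries. Egr3 was at 1.68 and 3.87 (C57) and 3.95 and 5.04 (SPRET) in basal cells, whereas after IL-4 the C57 allele was listed at 0 and the SPRET allele was at 0.274 and 0.249. No member was called in limma by adjusted p and 2-fold, where 6.73% of all genes were in basal cells and 4.64% after IL-4. At an unadjusted p under 0.05, 3 of 5 members passed in basal cells (Egr1, Egr2 and Egr3) and 1 (Egr2) after IL-4, where 32.3% and 29.9% of all genes did. For the change of the ratio with IL-4, 0.00% of genes were called and 0 of 5 members passed at an unadjusted p under 0.05, where 7.13% of all genes did. With 2 libraries per condition, a missing call does not show that alleles were equal.

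In the C57 x NOD F1 table only Nab1 could be tested. Egr1 was listed at 0 in both basal libraries and was at 14.4 and 0 (C57) and 15.1 and 2.63 (NOD) after IL-4, so that it missed the filter of both alleles at 1 or more in 2 libraries. Egr2, Egr3 and Nab2 were listed at 0 for both alleles in all libraries, and 78.9% to 83.6% of all genes were at 0 in any 1 column. Allele values are weighted by reads that overlap variants between the parents, so a listed 0 does not show that a gene was silent. Stat6 was listed at 0 here too, with basal means of 53.9 TPM in C57 and 21.6 TPM in NOD in the strain table. Nab1 of the C57 allele was at 48.5 and 49.0 in basal cells and at 33.0 and 15.3 after IL-4, and the NOD allele was at 47.6 and 46.3 and at 49.1 and 36.5. The log2 ratio of C57 to NOD was 0.05 ± 0.23 in basal cells and -0.88 after IL-4 (interval -1.62 to -0.15, unadjusted p = 0.032, adjusted p = 0.35 in limma). Its change was -0.94 ± 0.33 (interval -1.98 to 0.11, unadjusted p = 0.065). The NOD allele was the higher in both IL-4 libraries, which differ by more than 2-fold in the C57 allele. No gene was called in this table (0.00% in basal cells and after IL-4).

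Related genes were given by fixed lists. Of 23 immediate early genes, 18 were tested in the strain table. With 24 hours of IL-4, 3 were called higher and 0 lower in C57 (Fos, Ier3 and Fosl2), and 3 higher in BALB, which were the AP-1 genes Junb, Jund and Jun. In NOD and PWK 0 were called in either direction, and in SPRET 2 were higher and 2 lower. The shares of all genes called in either direction were 3.80% for C57, 2.08% for both BALB and PWK, 1.19% for NOD and 3.94% for SPRET. Fos, the founding AP-1 gene, rose from 4.42 to 14.4 TPM in C57 (1.52, adjusted p = 8.5e-11) and fell from 9.94 to 3.02 TPM in SPRET (-1.44, adjusted p = 2.0e-10), and Dusp4, a phosphatase of MAP kinases, rose from 5.48 to 27.8 TPM in SPRET (2.15). The median change of the list, in the order C57, BALB, NOD, PWK and SPRET, was 0.37, 0.43, -0.17, -0.14 and -0.09, beside -0.04, -0.11, 0.12, 0.08 and 0.11 over all genes tested.

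In basal cells, 6 of the 18 genes of this list were called higher in NOD than in C57 and 3 lower, where 16.9% of all genes were called in either direction. Dusp4 was at 589 TPM in NOD and 33.7 TPM in C57 (4.10, adjusted p = 8.5e-24) and Dusp5, another MAP kinase phosphatase, at 7.30 and 1.15 TPM (1.94), while Ier2 was at 1.94 and 16.0 TPM (-2.55). The list median was 0.61, beside -0.30 over all genes. Of the upstream factors, 0 of 16 tested were called higher and 3 lower in NOD, which were Stat6 and the kinases Rps6ka1 (12.9 against 34.0 TPM) and Rps6ka3 (2.42 against 5.97 TPM). Of the EGR relatives and NAB partners, 0 of 15 were higher and 2 lower. These were the deacetylase Hdac1, at 1.05 TPM in NOD and 5.65 TPM in C57 (-1.70), and Chd4, the remodelling subunit that NAB proteins bring in, at 27.7 and 56.7 TPM (-1.01). The counts of 3 of 16 and 2 of 15 are near the 16.9% of all genes, and are not a result about these lists. The median of -0.30 over all genes became -0.02 after median-ratio scaling, with which the listed genes were not tested. In none of the 5 strains was a gene of the EGR relatives and NAB partners called with 24 hours of IL-4.

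At 1 hour of the time course, 3 of the 23 listed immediate early genes were called higher and 2 lower in C57, and 3 higher and 4 lower in SPRET. Of all genes, 0.877% were called in either direction in C57 and 1.89% in SPRET. Ier3, an early gene linked to cell survival, rose from 46.6 to 244 TPM in C57 (2.36) and Dusp4 from 79.5 to 250 TPM (1.64). In SPRET Dusp4 rose from 21.5 to 183 TPM (3.03) and Atf3 from 37.6 to 162 TPM (2.08), whereas Fos fell from 10.0 to 1.31 TPM (-2.24). Pdgfb, which encodes a growth factor and is an EGR target known from other cells, fell from 23.2 to 7.27 TPM in C57 and from 9.18 to 0.976 TPM in SPRET, and was the 1 gene of that list called lower in each strain at 1 hour. Of the 19 genes on that list, 0 were called higher in C57 and 1 in SPRET, the cell cycle inhibitor Cdkn1a (from 41.2 to 174 TPM, 2.06).

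Genes of these lists were called between Egr2MKO and Egr2WT only at 24 hours. Before IL-4 and at 1 and 6 hours, 0 genes of the 4 lists were called, where 0.853%, 1.06% and 2.30% of all genes were. At 24 hours 4.55% of all genes were called. Of the 23 listed immediate early genes, 2 were then higher in Egr2MKO, Ier3 (193 against 74.7 TPM, 1.35) and Dusp4 (238 against 117 TPM, 1.02), and 1 was lower, Dusp2 (1.36 against 4.65 TPM, -1.27). Of 16 EGR target genes tested that are known from other cells, 0 were higher and 1 was lower, F3, which encodes tissue factor (0.122 against 1.54 TPM, -1.18). The medians of the 2 lists were -0.03 and 0.13, beside 0.12 over all genes.

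The genes whose levels were most like each member were named by the mean of 2 Pearson correlations of group means, over 10 groups of the strain table and 8 of the time course, among 11463 genes. These describe groups that share libraries and strains, and carry no p. For Egr2 they included Raph1 (0.95 and 0.86) and Batf3 (0.85 and 0.90), the latter a transcription factor of the AP-1 type. For Nab1 they were Pou2f2, Grk6 and Brpf1, with values from 0.88 to 0.94, and for Nab2 they were Notch1, Dhodh and Prr12, with values from 0.81 to 0.93. For Egr1 they were Flywch2 (0.87 and 0.81), Edn1 (0.99 and 0.49) and Nmnat1 (0.69 and 0.79). Between members, Egr2 and Nab1 had -0.63 and -0.43, and Nab1 and Nab2 had 0.69 and -0.37.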

How the data were processed

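RNA-seq libraries of BMDMs were analysed, 61 in 3 expression tables and 8 of F1 cells. Alignment by the authors used STAR 2.5.3 against genomes of each strain, with positions shifted to mm10 by MMARGE, and HOMER 4.11.1 gave the deposited TPM values over exons. HOMER, STAR, DESeq2 and mm10 are also in the submitters' processing notes. F1 tables hold TPM that the authors weighted by the share of reads from each allele, and their depth is unknown. Columns with the authors' DESeq2 fold changes and p-values were not used, and a table of human macrophages was not analysed here. No read counts are in the tables. From the tag totals, 89.7% to 94.2% of low values in a library came within 0.1 of whole reads, which is where reads per gene come from. Depth limits the low members most.

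Expression was tested as log2(TPM + 1), a pseudocount of 1, with limma 3.58.1 in R 4.3.3, with a trended prior and 1 mean per group in each table. The filter, 1 TPM or more in 2 or more libraries, left 11907 (strains), 12088 (time course) and 12079 genes (Egr2 table). P-values were adjusted by Benjamini-Hochberg over these genes. A call needed an adjusted p under 0.05 and more than a 2-fold change, and for differences between responses the adjusted p alone. F1 ratios were taken within each library. The fits were tested on simulated data. Over all pairs of libraries with the same replicate number, the mean r of residuals was 0.0134, 0.0305 and -0.0046 in the 3 tables. Within a strain or genotype it was 0.0347, 0.0405 and -0.0186, with 2 of 14, 6 of 24 and 0 of 24 pairs above 0.1. Numbers were not taken as pairs, and pairing within a strain was not tested.

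The members and lists were chosen with earlier results of these data known. All 5 members are named, with at most 3 called and non-overlapping genes of largest change per list and comparison, and the 3 genes most alike each member, of which 1 is not reported here. Alternatives were other pseudocounts (0.1 and 5 TPM), filters, scalings, models, a replicate block and leaving out replicate numbers. Leaving out each library in turn was added after seeing the data. Sequences came from RefSeq (GRCm38.p6). Plots used Python 3.11.15 and matplotlib 3.10.9.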

Additional observations from a re-analysis of the deposited data

Results flagged for a closer look

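Of 43 tests of whether a member responded unlike the reference group, 15 passed an adjusted p under 0.05 in limma, and all are listed here because 2 groups differed under the same contrast. They were 9 of 16 in the strain table, 5 of 15 in the time course and 1 of 12 between the genotypes. Of all genes, 15.8% passed for BALB, 33.3% for NOD, 22.4% for PWK and 33.4% for SPRET. At 1, 6 and 24 hours, 2.32%, 11.1% and 28.9% passed in the time course, and 0.0166%, 1.10% and 12.6% between the genotypes. Relative to C57 at 24 hours, the log2 response of Egr2 differed by -0.89 in BALB, -1.88 in NOD and 2.12 in SPRET. That of Egr1 was lower in the 4 other strains (BALB -0.54, NOD -0.63, PWK -0.74, SPRET -0.64), on levels of at most 1.06 TPM. Egr1 passed the filter there only through C57 after IL-4. In the time course its SPRET response at 24 hours did not differ from that of C57 past the threshold. That of Nab1 differed by 0.36 in NOD and 0.39 in PWK, neither of which held after median-ratio scaling.

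In the time course, the SPRET response of Egr2 exceeded that of C57 by 1.81 at 1 hour, 1.87 at 6 hours and 1.98 at 24 hours. At 6 hours, Egr1 differed by -1.52 and Nab2 by 0.44. In Egr2MKO, the 24-hour response of Nab1 differed from that of Egr2WT by 0.75. Single libraries were not screened as outliers, since no group held more than 3.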

How the results depend on the processing

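Counts of called member values are given in the order of the comparisons: IL-4 in the 5 strains (4), basal strains (10), IL-4 strains (7), strain responses (9), time-course changes (9), SPRET against C57 over time (4), time-course responses (5), IL-4 in the Egr2 table (9), genotypes (4), genotype responses (1), F1 alleles (0) and F1 changes (0). The count for SPRET against C57 over time holds Egr3, and those for strain responses and for IL-4 in the Egr2 table hold Egr1. In these tables each passed the filter only through a strain or groups where it was high. Of 320 recomputed counts, 299 stayed within 1.5 times and 21 did not. A pseudocount of 0.1 TPM gave 12 for IL-4 strains, 7 for SPRET against C57 and 1 for F1 alleles (Egr3 after IL-4, -1.85, adjusted p = 0.041). A pseudocount of 5 TPM gave 4, 1, 3 and 3 for IL-4 strains, SPRET against C57, IL-4 in the Egr2 table and genotype responses. No filter gave 3 time-course responses, and a filter of 5 TPM gave 5 strain responses and 1 for SPRET against C57, as Egr1 and Egr3 were then not tested. An adjusted p alone gave 9, 28, 33, 15, 13 and 11 for IL-4 in the strains, basal strains, IL-4 strains, time-course changes, SPRET against C57 and genotypes. Leaving out libraries, by replicate number or singly, the counts ranged over 4 to 4, 10 to 11, 6 to 8, 5 to 10, 7 to 10, 4 to 6, 3 to 6, 8 to 10, 4 to 5 and 1 to 1 for the first 10 comparisons. The 5 strain responses were those without replicate 1, and the 3 time-course responses those without C57 6-hour replicate 2, either C57 basal library or SPRET 6-hour replicate 2.

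With a replicate block the counts were 4, 10, 7, 9, 9, 4, 5, 9, 4, 1, 0 and 0, and the block changed no call. In the expression tables this block fits 1 effect per replicate number over all groups, so it does not test pairing within a strain or genotype. Of 7452 recomputed single values, 77 lost and 42 gained a call, and 1 reversed: the PWK response of Egr2 relative to C57 was -0.34 with a pseudocount of 5 TPM, against 0.04. The cause was not tested. F1 fits without a replicate left no residual degrees of freedom and were not run, as were fits of the 2-library tables without a replicate number.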
